A study of Mus musculus with 9 samples.

Results

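Oxidative phosphorylation genes were followed in MCEC, a line of endothelial cells from mouse heart, across 3 levels of the transcription factor Zbtb46. The genes were the protein-coding genes of the count table whose symbol begins with Nduf, Uqcr, Atp5 or Cox4 to Cox8, together with Cyc1, Sdha, Sdhb, Sdhc and Sdhd, and the protein-coding genes of the mitochondrial genome, whose symbols begin with mt-. This rule took 110 of 55487 genes, 97 of them nuclear and 13 mitochondrial. Each of the 3 groups had 3 libraries: WT, the MCEC line as it is; KD, in which Zbtb46 was knocked down; and OE, in which it was overexpressed. The labels give neither the method of knockdown and overexpression nor whether a group was 1 clone, and no cells with an empty or control vector were analysed here. Nothing in the labels says that the 3 libraries of a group came from separate cultures, so p-values measure the spread between these libraries, which may be technical.

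Oxidative phosphorylation couples the oxidation of nutrients in mitochondria to the synthesis of ATP. Complexes I (NADH dehydrogenase), II (succinate dehydrogenase), III (cytochrome bc1) and IV (cytochrome c oxidase) pass electrons to oxygen, and complex V (ATP synthase) uses the proton gradient that complexes I, III and IV build. All subunits of complex II are nuclear, whereas the other complexes combine nuclear subunits with a few that are read from the mitochondrial genome. The mitochondrial mRNAs are cut from long transcripts of the whole circle by removal of the transfer RNAs between them, and the nuclear genes are scattered over the chromosomes, so that the mRNAs for 1 complex come from many loci. Endothelial cells draw much of their ATP from glycolysis and use respiration in large part to keep up biosynthesis.

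Total counts ran from 39491828 to 55745849 per library. Zbtb46 stood at 13.3, 14.4 and 13.2 CPM (counts scaled to a common library total, with TMM factors) in WT, at 11.7, 11.4 and 10.6 in KD and at 192, 188 and 194 in OE, so the KD libraries were 17.9% lower than WT and the OE libraries 14.0-fold higher. The knockdown was therefore small beside the overexpression, although its 3 libraries lay below all of WT (adjusted p = 0.00144, edgeR quasi-likelihood test with Benjamini-Hochberg adjustment over 16955 genes, as for every adjusted p here). Among 12 endothelial markers, Eng had a mean of 124 CPM and Flt1 of 17.2 CPM in WT, whereas Pecam1, Cdh5, Emcn, Tie1 and Vwf were at or near 0 and Erg had no count in any library. The summed level of these 12 ran from 147 to 160 CPM in WT, from 124 to 131 CPM in KD and from 107 to 118 CPM in OE. The summed level of 8 fibroblast markers ran from 5107 to 5674 CPM in WT, from 4845 to 4909 CPM in KD and from 4036 to 4131 CPM in OE. Only 4 of these 8 had enough counts to be tested, so the sum rests on few genes. The 10 markers of cardiomyocytes, the cells richest in these complexes in heart, summed to between 2.26 and 3.62 CPM in any library. Fewer cells of a type and less RNA per cell cannot be told apart in such samples, and the part of these marker differences in the results below was not tested.

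The 13 mitochondrial mRNAs differed in level by orders of magnitude. Per kilobase of gene, mt-Nd1, a membrane subunit of complex I, had the highest mean in WT at 2185 CPM per kb, followed by mt-Co1, the catalytic subunit of complex IV, at 1824 CPM per kb and mt-Cytb, the cytochrome b of complex III, at 1074 CPM per kb. At the other end mt-Atp8 stood at 29.4, mt-Nd4l at 27.0 and mt-Nd3 at 11.3 CPM per kb. Neighbouring genes of the same circle therefore gave unequal counts: mt-Co1 lies at chrM:5328-6872 and mt-Co2, the copper-binding subunit of complex IV, close by at chrM:7013-7696, yet mt-Co2 had a mean of 81.6 CPM per kb.

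Some of these low values belong to genes whose coding sequence is repeated in the nuclear genome. The annotated transcripts were searched for copies. The query for each member was its longest coding sequence, or a transcript without coding sequence where that was longer. A copy with at least 95% identity over at least 50% of the query was found for 8 of the 13 mitochondrial members. Among the 97 nuclear members 3 had such a copy (Cox5b-ps, Ndufb11 and Ndufs3). That nuclear count may be too low, since Cox5b was not counted although Cox5b-ps matched it at 99.2% identity over 390 bases. In addition 45 of the 110 members share exonic bases with another annotated gene. Several of those copies are pseudogenes on 1 stretch of chromosome 1, and for mt-Nd3, mt-Co2, mt-Co3 and mt-Atp6 the copies held more counts than the gene itself. The pair of mt-Atp6, a proton-channel subunit of complex V, and Gm10925 (chr1:24613974-24614651) had 0 mismatches over 678 bases, with 18208 counts for mt-Atp6 and 26898 for Gm10925 summed over the 9 libraries. The pair of mt-Nd3, a complex I subunit, and Gm28438 (chr1:24612775-24613119) differed at 1 of 345 bases, the substitution T3C counted from the first base of the mt-Nd3 coding sequence. The stretches below, in the direction of transcription, show how little separates a read of the gene from a read of its copy; the capital marks the mismatch.
mt-Nd3: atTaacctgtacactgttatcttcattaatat
Gm28438: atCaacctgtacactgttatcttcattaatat
mt-Atp6: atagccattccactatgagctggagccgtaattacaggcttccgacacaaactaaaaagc
Gm10925: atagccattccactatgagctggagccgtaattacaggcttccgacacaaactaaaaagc
How reads that fit both places were counted is not given in the sources used here, so the levels of the 8 genes with a copy, and above all of these 4, are uncertain. For mt-Co1 the copy on chromosome 2, Gm13340, had 97.6% identity and 5.27% of the counts of the gene, and for mt-Nd4 the copy held 4.24%. Matches to less than 50% of a gene were not counted. The pseudogene Gm29216 (chr1:24615706-24616197, mean of 53.3 CPM in WT) lies beside the chromosome 1 copy of mt-Co2, as mt-Co1 lies beside mt-Co2. Whether it repeats part of mt-Co1 was not examined. The remaining 5 mitochondrial genes, mt-Nd1, mt-Nd2, mt-Cytb, mt-Nd6 and mt-Atp8, had no such copy among the annotated transcripts. Sequence between annotated transcripts was not searched. Of these genes, mt-Atp8 (chrM:7766-7969) lies between mt-Co2 and mt-Atp6 and shares 43 bases with mt-Atp6. The copies of those neighbours, Gm28661 (chr1:24614885-24615565) and Gm10925, lie side by side on chromosome 1. An unannotated copy of mt-Atp8 between them was therefore not excluded, and its level is uncertain too.

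The first comparison set the mitochondrial against the nuclear members. The mitochondrial mRNAs took 0.841%, 0.970% and 0.798% of all counts in the WT libraries, 0.968%, 0.925% and 0.915% in KD and 0.903%, 0.891% and 0.712% in OE. The nuclear members took 0.810%, 0.847% and 0.918% in WT, 0.797%, 0.781% and 0.796% in KD and 0.832%, 0.816% and 0.813% in OE. In the counts as deposited the 2 genomes thus contributed nearly equal totals, with 13 genes on one side and 97 on the other. This near equality depends on how reads that also fit a nuclear copy were counted. For 4 of the 13 the copies held more counts than the gene, and copies are not in the mitochondrial sum. The ratio of mitochondrial to nuclear counts was 1.04, 1.15 and 0.869 in WT, 1.21, 1.18 and 1.15 in KD and 1.09, 1.09 and 0.876 in OE. All 3 KD libraries had a higher ratio than any other library, but KD library 3 (1.150) and WT library 2 (1.145) were nearly tied. The WT and OE libraries overlapped, each with 1 library, the third, well below the rest of its group.

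The mean ratio was 1.18 ± 0.0318 (SD, n = 3) in KD, 1.02 ± 0.139 in WT and 1.02 ± 0.123 in OE. On the log2 scale KD exceeded WT by 0.23 (p = 0.1, exact two-sided permutation test of 3 against 3 libraries, the smallest p that this design allows; 0.15 adjusted over the 3 comparisons). OE differed from WT by 0.0027 (exact permutation p = 1) and from KD by -0.22 (exact permutation p = 0.1, 0.15 adjusted). Leaving out WT library 3 lowered the difference between KD and WT to 0.12, and leaving out OE library 3 moved that between OE and KD to -0.12. Without the most abundant member of each genome, KD exceeded WT by 0.15 (exact permutation p = 0.4) and OE differed from KD by -0.13 (exact permutation p = 0.3), and the second WT library then lay above all 3 KD libraries. With the 8 mitochondrial genes that have an annotated nuclear copy left out, a choice made after the data were seen, KD exceeded WT by 0.077 (exact permutation p = 0.8) and the groups overlapped. With 3 against 3 libraries no ratio could pass 0.05, and the 5 genes without an annotated copy, mt-Atp8 among them, did not separate the groups.

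Ribosomal RNA moved between the same libraries. It took 17.1%, 7.32% and 9.93% of the counts in WT, 9.44%, 11.8% and 11.7% in KD and 14.2%, 15.6% and 18.0% in OE, although the RNA had been selected for poly-A tails. The mitochondrial ribosomal RNAs gave 22.7, 11.7 and 10.3 counts per 100 counts of mitochondrial mRNA in WT, 11.4, 12.9 and 14.0 in KD and 19.7, 22.7 and 25.1 in OE. The OE libraries lay above the KD libraries in both measures, and the first WT library lay with OE. For mt-Rnr2, the large mitochondrial ribosomal RNA, OE exceeded KD by 0.65 on the log2 scale without passing the test (adjusted p = 0.137, edgeR). The part of ribosomal RNA content in the ratio was not tested.

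**Figure D1:**
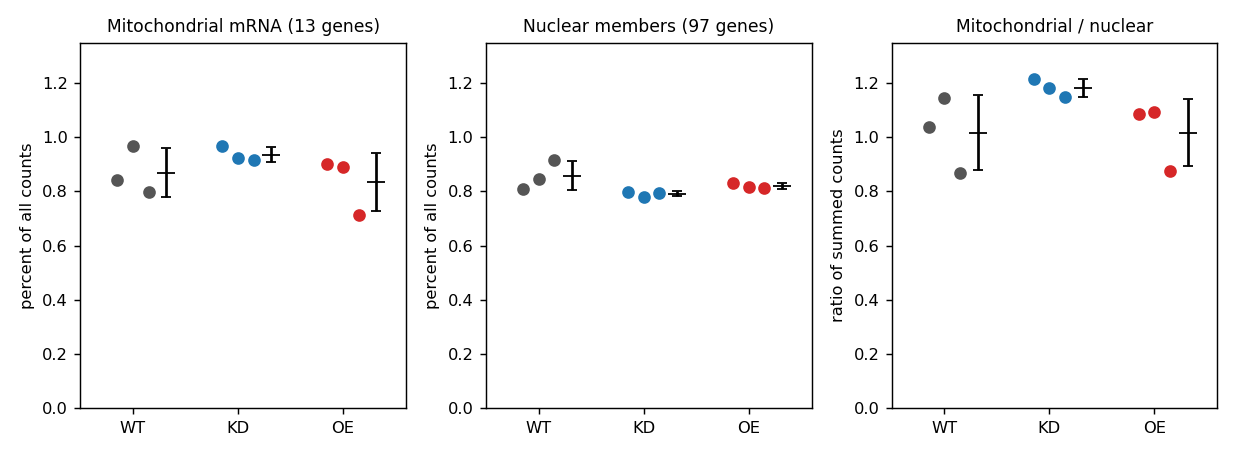
The share of all counts from the 13 mitochondrial mRNAs (left, percent), the share from the 97 nuclear members (middle, percent) and the ratio of the summed counts (right), with 1 point per library and the mean ± SD of 3 libraries beside each group. The ratio lies between 1.15 and 1.21 in KD, above every WT and OE library but barely above WT library 2 (1.145). WT and OE each spread from under 0.88 to over 1.08.

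Gene by gene, 3 of the 13 mitochondrial mRNAs passed the test in KD against WT, all of them higher, beside 21.4% of all 16955 genes tested. The median over the 13 was 0.19 on the log2 scale, against -0.0022 over all genes. mt-Nd5, a proton-pumping subunit of complex I, had 790, 903 and 784 CPM in WT and 1061, 1035 and 1038 CPM in KD. These groups did not overlap, and the log2 fold change was 0.34 ± 0.067 (SE; adjusted p = 0.000985, edgeR). mt-Co1 had 2869, 3029 and 2557 CPM in WT and 3523, 3406 and 3360 CPM in KD, again with no overlap, a log2 fold change of 0.28 ± 0.075 (SE; adjusted p = 0.0151, edgeR). mt-Co3, a core subunit of complex IV whose copy on chromosome 1 holds more counts, had 40.8, 37.4 and 35.2 CPM in WT and 42.2, 57.6 and 45.4 CPM in KD, a log2 fold change of 0.36 ± 0.15 (SE; adjusted p = 0.0223, edgeR). Its KD values stood above WT mainly through 1 library of 57.6 CPM. Without WT library 3 none of the 3 genes passed, with edgeR adjusted p up to 0.161 over the runs that each left out 1 library.

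The other mitochondrial mRNAs of KD did not pass. mt-Nd4, mt-Nd4l and mt-Nd6, further complex I subunits, had KD values above every WT value, with log2 fold changes of 0.19, 0.30 and 0.27. Of these, mt-Nd6 is the one mRNA that is read from the other strand of the circle. By contrast mt-Nd1 had 2198, 2227 and 1850 CPM in WT against 1978, 2008 and 1950 CPM in KD, and mt-Cytb 1226, 1284 and 1177 CPM against 1262, 1197 and 1221 CPM, with log2 fold changes of -0.08 and -0.0028. Of the 2 most abundant mRNAs per kilobase, mt-Co1 thus passed in KD and mt-Nd1 did not; the difference between them was not tested.

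In OE against WT, 3 of the 13 passed, 1 higher and 2 lower, beside 36.4% of all genes. The median over the 13 was -0.03, against 0.0020 over all genes. mt-Nd5 rose by 0.22 ± 0.10 (log2, SE; adjusted p = 0.0125, edgeR), with 1009, 1004 and 862 CPM in OE; the lowest of these overlapped WT. mt-Atp6 had 50.6, 44.9 and 40.2 CPM in WT and 37.4, 38.8 and 36.4 CPM in OE, lower in every library (log2 fold change -0.27, adjusted p = 0.0205, edgeR). mt-Cytb was 1163, 1157 and 967 CPM in OE, below every WT library (log2 fold change -0.17, adjusted p = 0.0391, edgeR). None of the 3 passed without WT library 1, and mt-Cytb moved to -0.082 without OE library 3.

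Set against KD, OE had 4 of 13 mitochondrial mRNAs lower and 0 higher, beside 41.5% of all genes called. These were mt-Co1 at -0.30, mt-Co3 at -0.38, mt-Atp6 at -0.33 and mt-Cytb at -0.16 on the log2 scale (adjusted p from 0.0051 to 0.0378, edgeR). The first 3 of them passed with each of the 9 libraries left out in turn, and mt-Cytb in 3 of the 9 runs. Both comparisons with WT share the WT libraries, and both comparisons with OE the OE libraries, so these lists are not independent of each other.

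**Figure D2:**
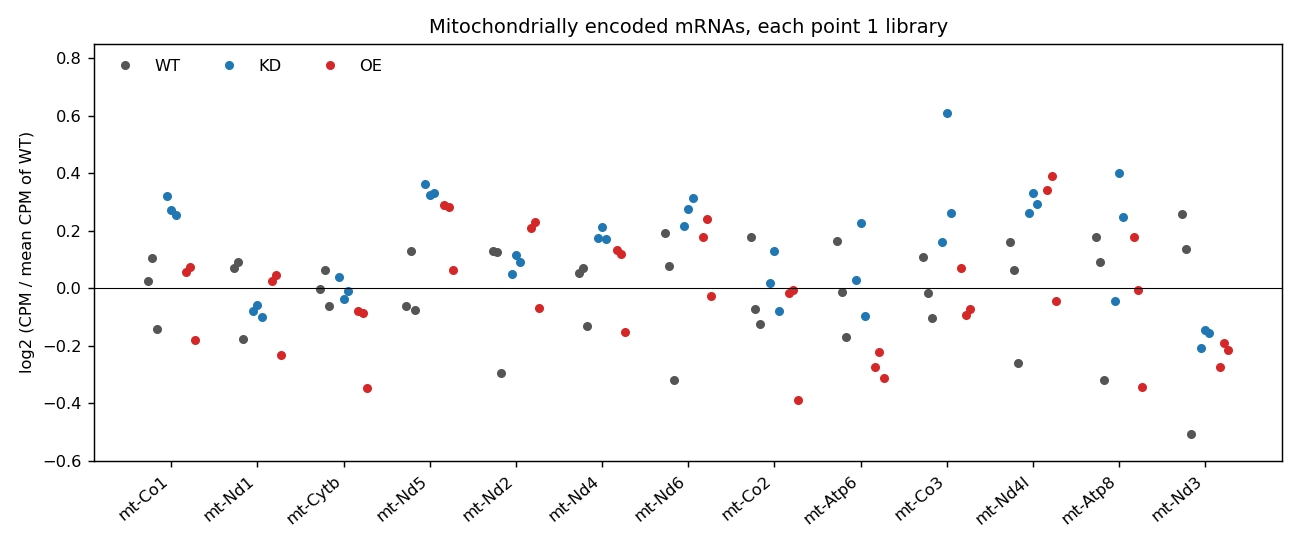
Level of each mitochondrial mRNA in each library as the log2 ratio to the WT mean (vertical axis), with the 13 genes ordered by their WT level in CPM along the horizontal axis and 1 point per library. The KD points of mt-Nd5 and mt-Co1 lie above all WT points, those of mt-Nd1 lie within the WT range, and the third libraries of WT and OE are low for most genes.

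The nuclear members were expressed at moderate to high levels and included few tissue-specific forms. Per kilobase of annotated exon, Cox8a of complex IV was highest in WT at 465 CPM per kb, followed by Cox6a1 of the same complex at 337 CPM per kb and by Atp5b, the catalytic beta subunit of complex V, at 227 CPM per kb. Of the 97 nuclear members 91 entered the test, and the 6 left out had few or 0 counts. Cox4i2, Cox6b2 and Cox7b2 had at most 9 counts in any library, and Cox8b and Cox8c had 0 counts in all 9, which does not exclude a very low level. A second entry for Atp5o also had 0 counts. Its 530 exonic bases share 287 with Donson and 243 with the first Atp5o entry on the same strand, so its 0 may reflect how shared reads were counted. Where complex IV has a ubiquitous and a muscle, lung or testis form, the ubiquitous form dominated. Cox6a1 stood at 203 to 288 CPM over all libraries, whereas its heart and muscle form Cox6a2 had 2 to 12 counts. Cox7a2 ran from 74.8 to 84.9 CPM in WT against 0.941 to 1.41 CPM for its heart and muscle form Cox7a1, and Cox8a at 268 to 321 CPM in WT had no counterpart, since Cox8b was at 0. Cox4i1 was present at 172 to 203 CPM in WT and its hypoxia-responsive lung form Cox4i2 at 0 to 0.0672 CPM. Ndufa4, a complex IV subunit despite its name, had 112 to 136 CPM in WT, and its hypoxia-induced relative Ndufa4l2 0.0447 to 0.316 CPM. Of the 3 genes for the identical ring subunit c of complex V, Atp5g3 was highest per kilobase at 104 CPM per kb, then Atp5g2 at 57.6 and Atp5g1 at 26.0 CPM per kb.

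In KD against WT, 16 of the 91 nuclear members passed, 1 higher and 15 lower, that is 17.6% beside the 21.4% of all genes; 11% of all genes were called higher and 10.4% lower. The median over the 91 was -0.06 on the log2 scale. The called changes were small, from 0.16 to 0.35 in size. By complex, 6 of 37 tested subunits of complex I, 1 of 4 of complex II, 3 of 9 of complex III and 4 of 17 of complex V fell, and of the 8 complex I assembly factors 1 fell, whereas 0 of 15 subunits of complex IV passed (2 at an unadjusted p under 0.05, edgeR). Ndufs8, an iron-sulfur subunit in the electron path of complex I, had 95.3, 85.9 and 115 CPM in WT and 78.8, 80.9 and 79.4 CPM in KD, a log2 fold change of -0.31 (adjusted p = 0.0141, edgeR). All KD values were below all WT values, of which the third was high. Ndufc2, an accessory subunit of complex I, had 30.3, 26.8 and 28.7 CPM against 22.4, 23.6 and 25.7 CPM (log2 fold change -0.26, adjusted p = 0.00966, edgeR). Ndufaf3, an early assembly factor of complex I, had 7.59, 6.72 and 7.36 CPM against 5.70, 5.87 and 5.36 CPM, the largest fall of a called nuclear member at -0.35 (adjusted p = 0.0363, edgeR); it shares exonic bases with Impdh2 on the opposite strand. Uqcrh, the hinge protein of complex III that contacts cytochrome c1, had 86.7, 73.9 and 79.5 CPM against 66.7, 66.1 and 66.9 CPM (-0.26, adjusted p = 0.000941, edgeR). Atp5k, the dimer-associated subunit e of complex V, had 55.3, 49.5 and 57.1 CPM against 43.4, 48.5 and 44.9 CPM (-0.24, adjusted p = 0.00635, edgeR). In each of these 5 genes the groups did not overlap, as for 34.7% of all genes tested.

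The count for KD rested on single libraries. It was 3 without KD library 1 and 34 without WT library 2, and 7 to 10 without KD library 2 or 3, WT library 1 or 3, or OE library 1 or 2. Ndufs8 and Atp5k lost their call without KD library 1, Ndufc2 without KD library 1 or WT library 1, and Ndufaf3 in 5 of 9 such runs, whereas Uqcrh and Sdhd kept theirs in all 9. Uqcrh and Sdhd were, however, not called in the fit below in which the median shift of neighbouring genes was removed. With only WT and KD in the fit 9 members passed, 8 of them lower.

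In OE against WT, 22 of the 91 nuclear members passed, 9 higher and 13 lower, 24.2% beside 36.4% of all genes, of which 16.9% were called higher and 19.5% lower. The median was 0.01 on the log2 scale, and single subunits moved in both directions. Succinate dehydrogenase showed this most plainly, since its 4 subunits are made from 4 nuclear genes on 4 chromosomes. Sdha, the flavoprotein that oxidises succinate (chr13:74322254-74350280), had 194, 203 and 204 CPM in WT, 195, 202 and 200 CPM in KD and 134, 139 and 140 CPM in OE. All OE values lay far below the others, a log2 fold change of -0.54 ± 0.032 against WT (SE; adjusted p = 1.18e-09, edgeR), whereas KD against WT was -0.01 (adjusted p = 0.91, edgeR). Sdhb, the iron-sulfur subunit (chr4:140961203-140979193), went the other way, with 96.1, 90.1 and 103 CPM in WT, 82.2, 85.8 and 87.2 CPM in KD and 116, 115 and 120 CPM in OE. It rose by 0.28 ± 0.058 in OE (SE; adjusted p = 0.000114, edgeR) and fell by 0.18 in KD (adjusted p = 0.0121, edgeR), the latter call being lost without KD library 1. Sdhc, 1 of the 2 membrane anchors (chr1:171127165-171150603), had 72.0, 70.7 and 73.7 CPM in WT and 71.7, 71.6 and 74.7 CPM in OE, a log2 fold change of 0.01 (adjusted p = 0.895, edgeR) with overlapping groups. Sdhd, the other anchor (chr9:50596357-50603812), had 103, 98.4 and 96.9 CPM in WT, 111, 115 and 121 CPM in KD and 76.7, 72.2 and 75.1 CPM in OE. It rose by 0.22 in KD (adjusted p = 0.00146, edgeR), the only nuclear member called higher there and not called on library totals alone, and fell by 0.41 in OE (adjusted p = 4.68e-07, edgeR). All positions are on GRCm38 from GENCODE M21 and span exons, introns and UTRs of the gene.

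**Figure D3:**
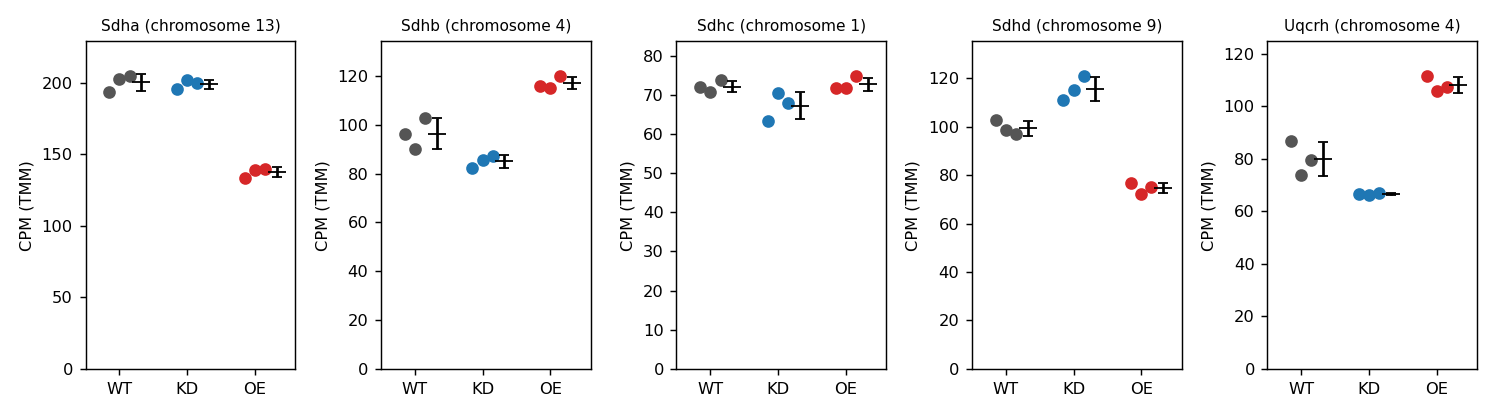
CPM on TMM-scaled library sizes (vertical axes, from 0) of the 4 complex II genes and of Uqcrh, with 1 point per library and the mean ± SD of 3 libraries beside each group. In OE Sdha and Sdhd lie below every WT library, Sdhb and Uqcrh above, and Sdhc within the WT range or, in 1 library at 74.7 CPM, just over it.

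The stretches upstream of the RefSeq start sites of these genes show what letters the promoters of subunits that moved in opposite directions hold. RefSeq (GRCm38.p6) gives promoters for Sdha, Sdhb, Sdhd and Uqcrh, and the 120 bases before the start are printed 5′ to 3′ on the strand of the gene: chr13:74350241-74350360 on the minus strand for Sdha, chr4:140961151-140961270 on the plus strand for Sdhb, chr9:50603850-50603969 on the minus strand for Sdhd and chr4:116075071-116075190 on the minus strand for Uqcrh. Capitals mark matches, on either strand, to 3 short motifs often found at genes for mitochondrial proteins: GCGC, then A and any base N, then GCGC for NRF1, CCGGAAG for ETS factors such as GABP, and AAGATGGC for YY1.
Sdha: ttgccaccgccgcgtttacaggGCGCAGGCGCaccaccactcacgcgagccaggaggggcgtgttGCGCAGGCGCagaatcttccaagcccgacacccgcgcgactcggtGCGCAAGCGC
Sdhb: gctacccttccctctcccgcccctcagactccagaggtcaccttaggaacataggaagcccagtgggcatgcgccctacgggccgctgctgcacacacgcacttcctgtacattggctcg
Sdhd: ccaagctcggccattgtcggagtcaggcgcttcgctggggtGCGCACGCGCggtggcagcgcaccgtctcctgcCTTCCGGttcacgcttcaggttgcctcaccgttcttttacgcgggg
Uqcrh: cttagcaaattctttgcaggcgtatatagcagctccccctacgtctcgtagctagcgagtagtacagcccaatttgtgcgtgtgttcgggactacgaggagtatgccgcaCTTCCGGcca
The Sdha stretch held 3 NRF1 matches, the Sdhd stretch 1 NRF1 and 1 ETS match, the Uqcrh stretch 1 ETS match and the Sdhb stretch 0 matches to the 3 motifs, although the longer Sdhb promoter window, from 250 bases before to 50 after the start, held 1 ETS match. The stretches of Sdha and Sdhb reach into the gene spans given above from GENCODE M21, and that of Uqcrh touches its span. RefSeq and GENCODE thus place these starts differently, and letters before the GENCODE starts were not searched separately. A match describes letters, not a bound site.

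The other large changes in OE were also spread over the complexes. Uqcr10, a small subunit of complex III, had 82.2, 71.7 and 87.0 CPM in WT and 49.7, 51.0 and 55.2 CPM in OE, the largest fall among nuclear members called (log2 fold change -0.63 ± 0.095, SE; adjusted p = 2.91e-07, edgeR). Uqcrh of the same complex had 111, 106 and 107 CPM in OE, all above WT (0.44 ± 0.07, SE; adjusted p = 9.63e-07, edgeR). Within complex III, 1 subunit thus rose and another fell by more than the spread of their libraries. Cox4i1, a subunit of complex IV that binds ATP, had 182, 172 and 203 CPM in WT and 129, 134 and 143 CPM in OE (-0.45, adjusted p = 1.29e-06, edgeR). It shares exonic bases with Emc8 on the opposite strand, and whether strand was used in counting is not given in the sources used here. Cox7c, a small membrane subunit of the same complex, had 99.8, 88.3 and 93.0 CPM in WT and 69.3, 66.6 and 69.4 CPM in OE (-0.45, adjusted p = 5.53e-07, edgeR). Cox7a2 fell by 0.36 (adjusted p = 1.02e-05, edgeR), and the accessory complex I subunit Ndufs4, whose loss in mice causes an encephalopathy like Leigh syndrome, fell by 0.38 (adjusted p = 0.000221, edgeR).

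Members that rose in OE were mostly smaller in change. Ndufaf5, an enzyme that modifies Ndufs7 during complex I assembly, had 7.83, 7.19 and 6.84 CPM in WT and 9.42, 9.79 and 10.7 CPM in OE (0.46, adjusted p = 0.00108, edgeR). Ndufaf7, a further assembly factor of complex I, rose by 0.29 (adjusted p = 0.00711, edgeR; not called without OE library 3), and the accessory subunit Ndufc1 by 0.29 (adjusted p = 0.00141, edgeR). Atp5g1 had 131, 123 and 128 CPM in WT and 150.5, 153 and 160 CPM in OE (0.28, adjusted p = 6.73e-05, edgeR). The other 2 genes for subunit c did not pass, Atp5g2 with -0.07 and Atp5g3 with 0.09. By complex, 2 of 37 subunits of complex I rose and 3 fell, 1 of 4 of complex II rose and 2 fell, 1 of 9 of complex III rose and 2 fell, 1 of 15 of complex IV rose and 4 fell, 2 of 17 of complex V rose and 1 fell, and 2 of 8 assembly factors rose and 1 fell.

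**Figure D4:**
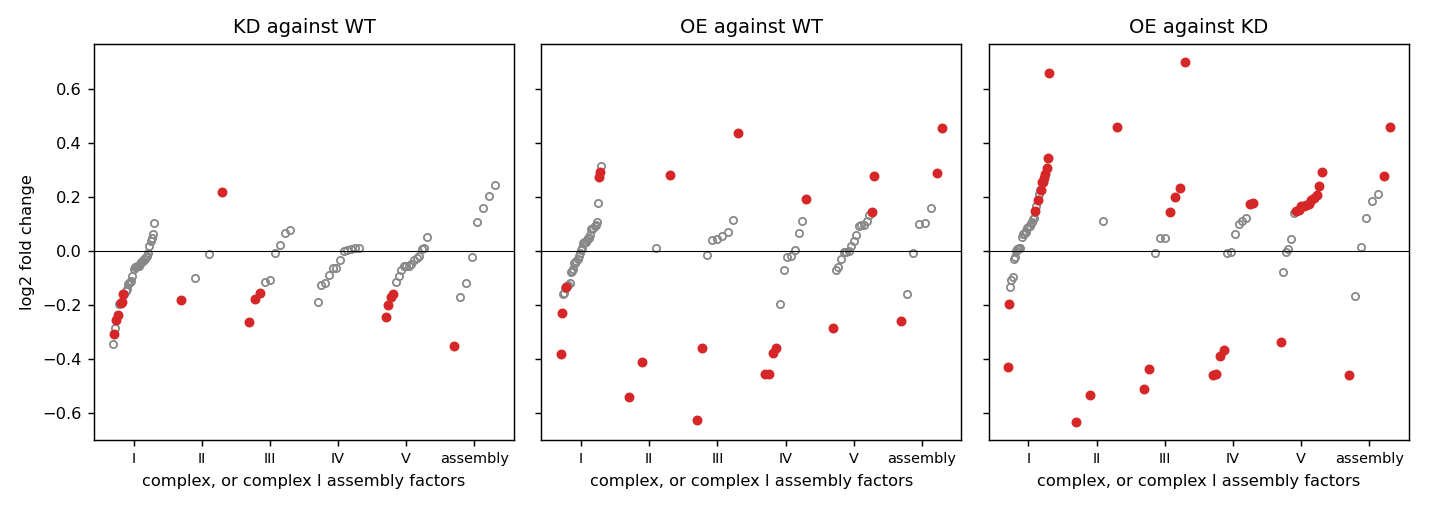
Log2 fold change (vertical axis) of the nuclear members that reached a mean of 5 CPM in any group, sorted within each complex, for the 3 comparisons; filled red points passed the test at an adjusted p of 0.05 (edgeR) and open points did not, and the supercomplex factor Cox7a2l is not drawn. Called points of KD against WT lie below 0 except Sdhd, those of OE against WT lie on both sides of 0 in every complex, and complex V lies mostly above 0 in OE against KD.

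The position of a gene on its chromosome went with its change in OE. The chromosomes were divided into windows of 20 Mb, and the median log2 fold change of all tested genes that are no members was taken in each of 141 windows with at least 10 such genes. In OE against WT 14 windows had a median beyond 0.2 in either direction, in KD against WT 0 windows did. In the window of Sdha (chromosome 13, from 60 to 80 Mb) the median over 163 other genes was -0.40 in OE and 0.14 in KD against WT. In the window of Sdhd (chromosome 9, from 40 to 60 Mb) it was -0.39 in OE and 0.16 in KD over 202 genes, in that of Sdhb (chromosome 4, from 140 to 160 Mb) 0.30 in OE and -0.15 in KD over 214 genes, and in that of Uqcrh (chromosome 4, from 100 to 120 Mb) 0.35 in OE and -0.13 in KD over 165 genes. The windows of Uqcr10 (chromosome 11), Cox4i1 (chromosome 8) and Cox7a2 (chromosome 9) had medians of -0.47, -0.44 and -0.33 in OE. These subunits moved in the direction of their neighbours and by a similar size, or a larger one for Sdha, Uqcr10 and Uqcrh.

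Of the 15 nuclear members in the windows beyond 0.2, 13 passed in OE against WT, 2 higher and 11 lower, where 58% of the genes that are no members passed in the same windows. The other 76 nuclear members lay in windows within 0.2; 9 of them passed, 7 higher and 2 lower (11.8%), where 33.8% of the genes that are no members did. Of the 15 members in the windows beyond 0.2, 12 lay in windows with a median below -0.2, and 11 of these were called lower; the exception was Ndufs6, a zinc-binding subunit of complex I in the window of Sdha, at -0.13 (adjusted p = 0.206, edgeR), named after its value was seen. The remaining 3 lay in windows above 0.2, of which Sdhb and Uqcrh rose and Ndufs5, a complex I subunit at 0.32, did not pass (adjusted p = 0.0611, edgeR).

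With the window medians removed as an offset for each gene, 9 nuclear members passed in OE against WT, 6 higher and 3 lower, so that 66.7% of calls were higher in place of 40.9%; 32.6% of all genes passed in that fit. Sdhb came to -0.01, Sdhd to -0.0064, Uqcrh to 0.10, Uqcr10 to -0.12 and Cox4i1 to -0.0045 against WT, and none of these passed. Sdha came to -0.13 and still passed (adjusted p = 0.0176, edgeR), as did Cox7c at -0.18 (adjusted p = 0.0106, edgeR). Ndufs6 was called higher in that fit, at 0.28 (adjusted p = 0.0117, edgeR). Ndufaf5 at 0.48, Ndufaf7 at 0.29, Ndufc1 at 0.24 and Atp5g1 at 0.24, whose windows had medians of -0.03, -0.0043, 0.03 and 0.05, stayed close to their values. In KD against WT, 11 members passed with medians removed, all lower, and 6 of the 16 were among them, while 18.4% of all genes passed. Calls were lost for Uqcrh at -0.13, Sdhd at 0.086, Sdhb at -0.013 and Ndufs8 at -0.24 (adjusted p = 0.102, 0.226, 0.904 and 0.0548, edgeR). Ndufc2, Ndufaf3 and Atp5k kept theirs (adjusted p = 0.0174, 0.0357 and 0.00695, edgeR). Why whole windows shifted was not tested.

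**Figure D5:**
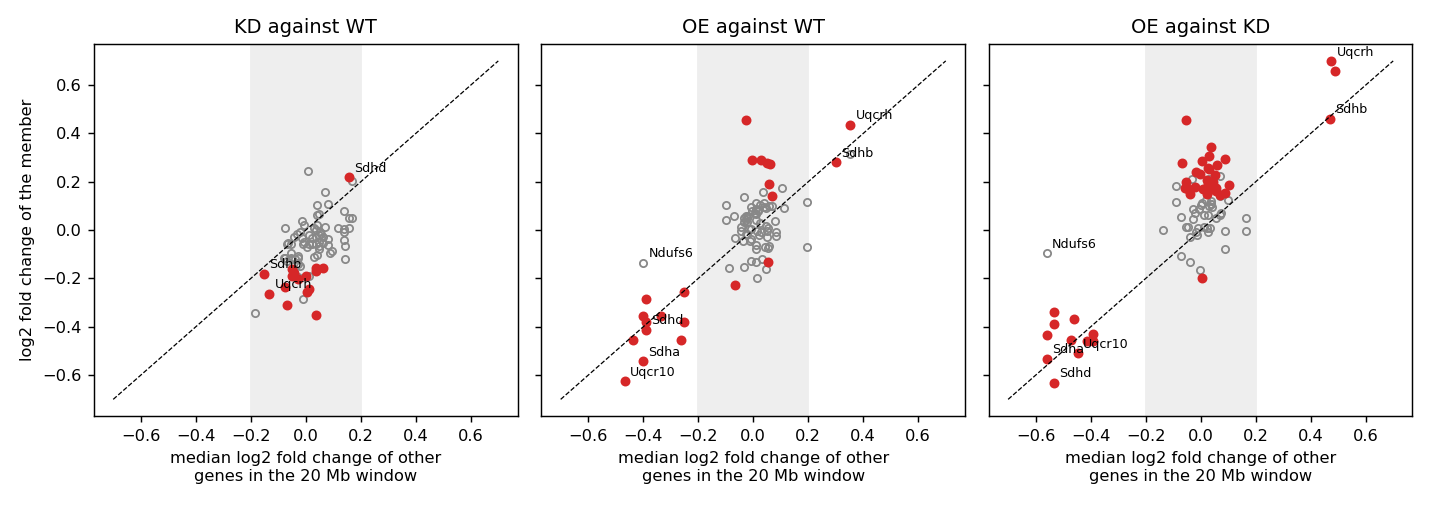
Log2 fold change of each nuclear member that reached a mean of 5 CPM in any group (vertical axis) against the median log2 fold change of the other genes in its 20 Mb window (horizontal axis) for the 3 comparisons; red points passed the test, the dashed line marks equal values and grey shading spans window medians within 0.2. In OE against WT Sdhb and Uqcrh at the upper right and Sdha, Sdhd and Uqcr10 at the lower left lie near the line, whereas window medians of KD against WT stay within 0.2.

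OE against KD had the most calls: 45 of 91 nuclear members, 32 higher and 13 lower, 49.5% beside 41.5% of all genes, of which 19.4% were called higher and 22.1% lower. The median over the 91 was 0.10 on the log2 scale, against 0.01 over all genes. With library totals alone in place of TMM factors 30 passed, 17 higher and 13 lower, so the share of higher calls was 56.7% in place of 71.1%. Groups did not overlap for 65 of the 91 members, beside 55.4% of all genes. The complexes differed in their counts: complex V had 11 of 17 subunits higher and 1 lower with a median of 0.17, complex I had 10 of 37 higher and 2 lower with a median of 0.09, complex III 4 of 9 higher and 2 lower, complex IV 3 of 15 higher and 5 lower, and complex II 1 of 4 higher and 2 lower. The difference between complexes was not tested.

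Away from the shifted windows the direction of the calls was nearly uniform in the fit with TMM factors. Of 76 members in windows within 0.2, 31 passed, 29 higher and 2 lower, that is 40.8%. Of the 14930 genes there that are no members 38.4% passed, 2742 higher and 2997 lower. The split of these 76 on library totals alone was not counted, and over all 91 it was 17 higher and 13 lower. With window medians removed 33 of the 91 passed, 30 higher and 3 lower, 90.9% higher in place of 71.1%, beside 37.5% of all genes. Ndufs8 had 98.0, 101 and 104 CPM in OE against 78.8, 80.9 and 79.4 CPM in KD (0.34, adjusted p = 0.00335, edgeR). Atp5k had 54.2, 51.6 and 55.9 CPM in OE, all above KD (0.24, adjusted p = 0.00294, edgeR), while it did not differ detectably from WT (-0.0016, adjusted p = 0.989, edgeR). Ndufaf3 had 7.16, 8.76 and 7.31 CPM in OE (0.46 against KD, adjusted p = 0.00318, edgeR). Cox7a2l, a factor that joins complexes III and IV in supercomplexes, was 0.16 higher (adjusted p = 0.0128, edgeR). Among called members with a mean of 5 CPM or more in a group, the largest differences in either direction were in the shifted windows, with Uqcrh at 0.70, Ndufs5 at 0.66 and Sdhb at 0.46 higher, and Sdhd at -0.63, Sdha at -0.53, Uqcr10 at -0.51 and the assembly factor Ndufaf2 at -0.46. Of the muscle forms, Cox7a1 was lower in OE than in KD by 0.86 (0.809, 1.03 and 0.533 CPM against 1.29, 1.43 and 1.60 CPM; adjusted p = 0.0169, edgeR), and lost its call without KD library 3 or OE library 3. Cox6a2, at 2 to 12 counts a library, was called higher (adjusted p = 0.0447, edgeR) and passed in 1 of the 9 runs with a library left out.

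The nuclear genes that act on these complexes were counted from lists. Of 28 genes for maintenance and expression of mitochondrial DNA, all tested, 14 rose and 1 fell in OE against WT with a median of 0.17, beside 16.9% of all genes higher and 19.5% lower, and 3 rose in KD, beside 11% of all genes higher. Tfam, which packages mitochondrial DNA and starts its transcription, had 36.0, 34.8 and 31.0 CPM in WT, 34.5, 36.1 and 34.8 CPM in KD and 40.8, 40.6 and 37.8 CPM in OE. It rose by 0.23 in OE (adjusted p = 0.00637, edgeR; 0.17 and not called on library totals alone), and KD overlapped WT. Fastkd2, needed for the large mitochondrial ribosomal RNA, rose by 0.42 in OE (adjusted p = 6.05e-05, edgeR). Fastkd3, of the same family, rose by 0.38 in KD and fell by 0.35 in OE; its window on chromosome 13 is that of Sdha, and with the median removed the OE value was 0.063. Polrmt, the mitochondrial RNA polymerase, had 50.2, 50.1 and 54.4 CPM in WT and 50.9, 54.9 and 51.9 CPM in OE (0.03, adjusted p = 0.729, edgeR). While 14 of these genes rose in OE, 1 of the 13 mitochondrial mRNAs did.

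Of 13 regulators of mitochondrial biogenesis 11 were tested, with 1 higher and 2 lower in KD and 1 higher in OE, beside 21.4% and 36.4% of all genes called. Ppargc1a, the coactivator best known for raising respiratory genes, was low, at 0.604 to 0.706 CPM in WT and 0.706 to 0.980 CPM in OE (adjusted p = 0.549, edgeR). Nrf1 had 37.7, 39.9 and 41.4 CPM in WT and 42.1, 38.6 and 43.9 CPM in OE, with overlapping groups. Esrra, a nuclear receptor that drives respiratory genes, fell in KD from 27.5, 26.4 and 26.1 CPM to 20.2, 20.9 and 20.9 CPM (-0.37, adjusted p = 0.000176, edgeR) and stood at 26.4, 25.5 and 25.3 CPM in OE. Gabpb1, the beta subunit of GABP, rose in OE from 24.1, 26.1 and 26.7 CPM to 31.1, 31.6 and 34.5 CPM (0.34, adjusted p = 0.000479, edgeR).

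Of 78 mitochondrial ribosomal protein genes 77 were tested; 23 rose and 6 fell in OE against WT with a median of 0.10, and 2 rose and 7 fell in KD with a median of -0.05. With both directions counted, the share of these genes called was close to the 36.4% of all genes in OE. In KD it was below the 21.4% of all genes. By direction, 23 of the 77 rose and 6 fell in OE, beside 16.9% of all genes higher and 19.5% lower. Rises thus outnumbered falls among these genes in OE, whereas falls outnumbered rises over all genes. In KD 2 rose and 7 fell, beside 11% of all genes higher and 10.4% lower. These differences in direction were not tested. Mrpl37 (0.54 in OE) and Mrpl20 (0.43 in OE, -0.47 in KD) both lie on chromosome 4 in windows above 0.2. Of 43 assembly factors outside the symbol rule 40 were tested, with 3 higher and 3 lower in KD (21.4% of all genes called) and 7 higher and 4 lower in OE (36.4% of all genes called). Atpaf1, a chaperone for the beta subunit of complex V, had 12.3, 13.1 and 11.7 CPM in WT, 8.36, 9.46 and 9.13 CPM in KD and 18.1, 19.8 and 18.6 CPM in OE. It fell by 0.47 in KD and rose by 0.60 in OE (adjusted p = 0.000464 and 6.1e-06, edgeR), and shares the chromosome 4 window of Uqcrh, after whose removal 0.26 was left in OE. Of the 14 tricarboxylic acid cycle genes, 1 rose and 5 fell in KD, beside 11% of all genes higher and 10.4% lower, and 5 rose and 5 fell in OE, beside 16.9% higher and 19.5% lower. Idh3b, a subunit of the NAD-dependent isocitrate dehydrogenase, fell by 0.27 in KD (adjusted p = 0.000257, edgeR), and Ogdh, the first enzyme of the oxoglutarate dehydrogenase complex, fell by 0.44 in OE (adjusted p = 4.62e-08, edgeR) in the chromosome 11 window of Uqcr10. Of 16 genes for electron carriers and coenzyme Q 15 were tested, with 1 higher and 4 lower in KD and 2 higher and 3 lower in OE, beside 21.4% and 36.4% of all genes called. Coq7, a hydroxylase of coenzyme Q synthesis, fell by 0.27 in KD (adjusted p = 0.0156, edgeR; not called without KD library 1 or 3 or WT library 3), and Etfa, which passes electrons from fatty acid oxidation to coenzyme Q, fell by 0.47 in OE (adjusted p = 9.56e-08, edgeR) in the chromosome 9 window of Sdhd.

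The nuclear members also shared letters in their promoters, which the symbol rule did not use. Promoters of 250 bases before to 50 bases after the start were matched for 73 of the 91 tested nuclear members, with 78 windows in all. The NRF1 motif was in 25.6% of these windows against 4.6% of the 32851 promoters in the RefSeq table, the ETS motif in 24.4% against 8.9% and the YY1 motif in 14.1% against 2.7%, on either strand, and matches of different motifs overlapped in 0 of the 78. The 32851 promoters were not limited to genes tested here or matched for base content. Whether other tested genes hold these motifs as often was not examined. Among members in windows beyond 0.2 in OE against WT the NRF1 motif was in 4 of 13 promoters and the ETS motif in 4 of 13, against 16 and 15 of 65 among the other members; the YY1 motif was in 2 of 13 against 9 of 65. Of the 25 promoters of members higher in OE than in KD in the other windows 9 held the NRF1 motif, against 7 of 39 of those not called, 6 against 9 held the ETS motif, and 2 against 7 held the YY1 motif. These shares are descriptions of letters, given with no test.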

How the data were processed

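RNA was selected for poly-A tails and sequenced as paired reads of 150 bases, per the labels' protocols. The authors deposited raw counts, which the values bear out (whole numbers with unequal totals); the submitters' processing notes name GRCm38 (mm10), and aligner, counter, strand setting and annotation release are not given in the sources used here. Genes on several rows had identical counts and were counted once (55774 rows, 55487 genes). Positions, exon lengths (union of all annotated exons, which lowers levels per kilobase where rare long exons are annotated) and coding sequences came from GENCODE M21, and promoters from RefSeq. Copies were searched with BLAST+ 2.17.0.

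Counts were filtered by group with filterByExpr and fitted with edgeR 4.0.16 (R 4.3.3; TMM, robust quasi-likelihood) over all 9 libraries with group as the only term, with Benjamini-Hochberg adjustment across 16955 genes at a threshold of 0.05. CPM use TMM-scaled totals, and SEs come from the SDs of log2 CPM with a prior count of 2. The procedure was tested on simulated data. Ratios were compared by exact permutation (scipy 1.17.1).

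Named genes were all mitochondrial members, the complex II genes, isoform sets, the 4 largest called rises and falls at 5 CPM or more and the smallest p per complex, comparison and list, plus Ppargc1a, Nrf1, Tfam and Polrmt. Members, rule and lists were chosen with earlier results of these data known. Alternatives were other scalings, filters, tools (DESeq2 1.42.0, limma 3.58.1), samples in the fit, a replicate block, removed window medians and each library left out.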

Additional observations from a re-analysis of the deposited data

How the results depend on the processing

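The replicate numbers did not pair the libraries: deviations of same-numbered libraries from their group means correlated between -0.042 and 0.049. With the number as a replicate block 17, 23 and 47 nuclear and 4, 3 and 6 mitochondrial members passed in KD against WT, OE against WT and OE against KD, and the ratio differences had exact p of 0.25, 1 and 0.25. Nuclear counts moved to 9 in KD against WT with only the groups compared and to 9 in OE against WT with window medians removed. Mitochondrial counts moved to 5 in KD against WT under limma-voom, and in OE against KD to 7 with no filter and 2 with only the groups compared. Leaving out 1 library gave 3 to 34 nuclear members in KD against WT, 17 to 32 in OE against WT and 33 to 53 in OE against KD, and 0 to 4, 0 to 3 and 3 to 4 mitochondrial members. Ratio differences then ran from 0.12 to 0.32, from -0.11 to 0.11 and from -0.28 to -0.12. Without genes that have an annotated nuclear copy they were 0.077, -0.034 (reversed) and -0.11. Window removal turned the sign of Sdhb (-0.014), Fastkd3 (0.063) and Ogdh (0.061) in OE against WT, of Cox7c in KD against WT (-0.16), and of Sdha (0.020), Sdhb (-0.0014), Cox4i1 (0.035), Ogdh (0.14) and Cox7a2 (0.10) in OE against KD. Of 3297 alternatives of named genes 3111 kept direction and call; of 82 called values 58 passed with each library left out. Counts in single digits limit Cox6a2, Ndufa4l2 and the forms not tested.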
